A study of Mus musculus with 18 samples.

Results

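Collagen chain genes were taken from the expression matrix by name alone, as every row whose symbol was Col, a number, the letter a and a number. The rule found 44 of the 20878 genes of the matrix and used no expression value. A collagen molecule is a triple helix of 3 chains, in which glycine recurs at a fixed step, so that each chain holds a long run of the triplet Gly-X-Y. Fibrillar chains build the fibers of bone, tendon and skin, type IV chains the mesh of basement membranes, type VI chains beaded microfilaments around cells, and FACIT chains sit on the surface of fibrils. Type I collagen is the main protein of bone matrix, and the matrix laid down by the malignant cells is a feature by which osteosarcoma is recognized.

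RNA of 18 tumors had been sequenced, each from a different mouse. All tumors were grafts under the skin of K7M2 cells, which are a Balb/c-derived, poorly differentiated osteosarcoma line of the mouse, transduced by lentivirus with an shRNA against *Atrx* (ATRXKD) or with a control shRNA (ATRXCT). Balb/c hosts were immunocompetent and of the strain of the cell line, and NSG hosts carried the scid mutation of Prkdc and a null Il2rg allele on the NOD background and lack T, B and NK cells. Hosts were labelled female, were 6 to 8 weeks old and received 500000 cells each. The groups were Balb/c ATRXCT (mice 41, 43, 44 and 45, n = 4), Balb/c ATRXKD (mice 56, 58, 59 and 60, n = 4), NSG ATRXCT (mice 1, 2, 3, 4 and 5, n = 5) and NSG ATRXKD (mice 26, 27, 28, 29 and 30, n = 5), and values are listed in that order of mice throughout. Cages of 5 mice had been assigned to a kind of cells, so cage and knock-down cannot be told apart, nor can strain, immune status and cage in the comparison of hosts. The p-values below set a difference against the spread between tumors of different mice. The study describes K7M2 cells with an *ATRX* shRNA and control cells, and the sample titles name no separate transductions. Other differences between the transduced cells therefore cannot be told apart from the knock-down, in either host or in the host difference of its effect.

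The values were FPKM, that is fragments scaled to transcript length and to library size, so that levels could be compared between genes per length. Libraries held an estimated 15150000 to 25200000 fragments, and the floor given for a gene is the FPKM of 3 fragments. *Atrx* itself was at 10.3 to 26.0 FPKM in Balb/c ATRXCT, 7.88 to 21.5 in Balb/c ATRXKD, 11.6 to 24.4 in NSG ATRXCT and 8.42 to 16.4 in NSG ATRXKD tumors, so the groups overlapped in both hosts, and the difference was -0.34 ± 0.36 (SE) on the log2 scale in Balb/c and -0.74 ± 0.22 in NSG mice (limma, adjusted p = 0.999 and 0.0610). These are RNA values of whole tumors, whereas the study showed the loss of ATRX protein in the K7M2 line itself, by western blot. Genes of the Y chromosome went against the labelled sex in the NSG hosts: *Eif2s3y* stood at 10.9 to 14.4 FPKM in the NSG ATRXCT and at 5.64 to 10.8 in the NSG ATRXKD tumors and was listed at 0 in all 8 Balb/c tumors, so that sex and strain of the host cannot be told apart either. In 6 libraries (mice 43 and 45 of Balb/c ATRXCT, 56 and 60 of Balb/c ATRXKD, 3 of NSG ATRXCT and 27 of NSG ATRXKD) values rose with transcript length relative to the mean of all libraries, and this slope was negative in the other 12, with mouse 41 at the border. Collagen transcripts are long, with a median of 6120 nt against 2487.5 nt for all genes of the matrix, and 33 of the 44 exceeded 5000 nt against 13.8% of all genes. Among osteoblast genes, *Runx2*, *Spp1* and *Phex* had a mean of at least 1 FPKM, whereas *Ibsp* did not exceed 0.0292 FPKM and *Dmp1* 0.0448 FPKM in any tumor. A bulk tumor holds grafted and host cells, and a lower level from fewer cells of a type and one from less RNA per cell cannot be told apart.

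The triplet repeat could be read in the exons of these genes. In the deposited annotation (mm10), 63.6% of the 1920 wholly coding exons of the 44 genes had a length that was a multiple of 9 nt, the length of 1 Gly-X-Y unit, against 13.7% of such exons in all other genes. A length of exactly 54 nt, 6 units, was found in 24.4% of the collagen exons and in 0.404% of the others. The first exon made of whole units is shown here for chains on which the results turn, read from GENCODE vM21 transcripts (GRCm38, the same build as mm10) on the coding strand, with the glycine codon of each triplet in capitals.
Col1a1, exon 4, chr11:94938378-94938413, + strand, 36 nt: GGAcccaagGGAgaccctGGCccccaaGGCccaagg
Col1a2, exon 4, chr6:4509604-4509639, + strand, 36 nt: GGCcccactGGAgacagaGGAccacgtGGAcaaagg
Col3a1, exon 6, chr1:45325360-45325413, + strand, 54 nt: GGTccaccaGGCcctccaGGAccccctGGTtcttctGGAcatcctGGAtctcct
Col4a1, exon 3, chr8:11247006-11247095, - strand, 90 nt: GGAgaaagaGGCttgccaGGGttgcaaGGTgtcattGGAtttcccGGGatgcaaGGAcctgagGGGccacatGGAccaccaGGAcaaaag
Col4a2, exon 6, chr8:11399704-11399748, + strand, 45 nt: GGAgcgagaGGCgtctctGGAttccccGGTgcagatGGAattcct
Col6a1, exon 9, chr10:76719623-76719676, - strand, 54 nt: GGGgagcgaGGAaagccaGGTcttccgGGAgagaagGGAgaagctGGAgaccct
Col6a6, exon 13, chr9:105760051-105760104, - strand, 54 nt: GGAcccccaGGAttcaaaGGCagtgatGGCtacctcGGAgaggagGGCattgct
Col18a1, exon 8, chr10:77079261-77079287, - strand, 27 nt: GGTgaccctGGTgaagatGGGagaccg

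The exons shown were selected to open with a glycine codon and to hold GG at every ninth base. Across them, all of GGA, GGC, GGG and GGT opened triplets. The longest unbroken run of such triplets was 338 in *Col1a1*, 339 in *Col1a2* and 344 in *Col3a1*, the fibrillar chains, against 40 in *Col4a1* and 66 in *Col4a2*, 87 in *Col6a1*, 42 in *Col6a6* and 30 in *Col18a1*. *Col8a1*, *Col8a2* and *Col10a1* had no wholly coding exon, and their longest runs were 61, 60 and 61 triplets.

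Over the 18 tumors the mean reached 1 FPKM for 22 of the 44 genes. It lay between 0.1 and 1 FPKM for 10 and below 0.1 FPKM for 12. Above the floor of 3 fragments in all 18 tumors were 29 genes, and *Col9a1*, *Col9a2* and *Col26a1* were above it in none. Together the collagen genes took 0.0882% to 0.369% of the FPKM of a tumor, with a median of 0.242% in Balb/c ATRXCT, 0.188% in Balb/c ATRXKD, 0.118% in NSG ATRXCT and 0.213% in NSG ATRXKD tumors, and the ranges of all 4 groups overlapped. In every group the highest shares were those of libraries whose values rose with transcript length (mice 43 and 45, 56 and 60, 3, and 27). The part of this in the group medians was not tested. FPKM is scaled to transcript length, so these are not shares of fragments. *Col1a2*, *Col1a1* and *Col3a1* alone made up 61.6% to 72.8% of the collagen FPKM.

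**Figure D1:**
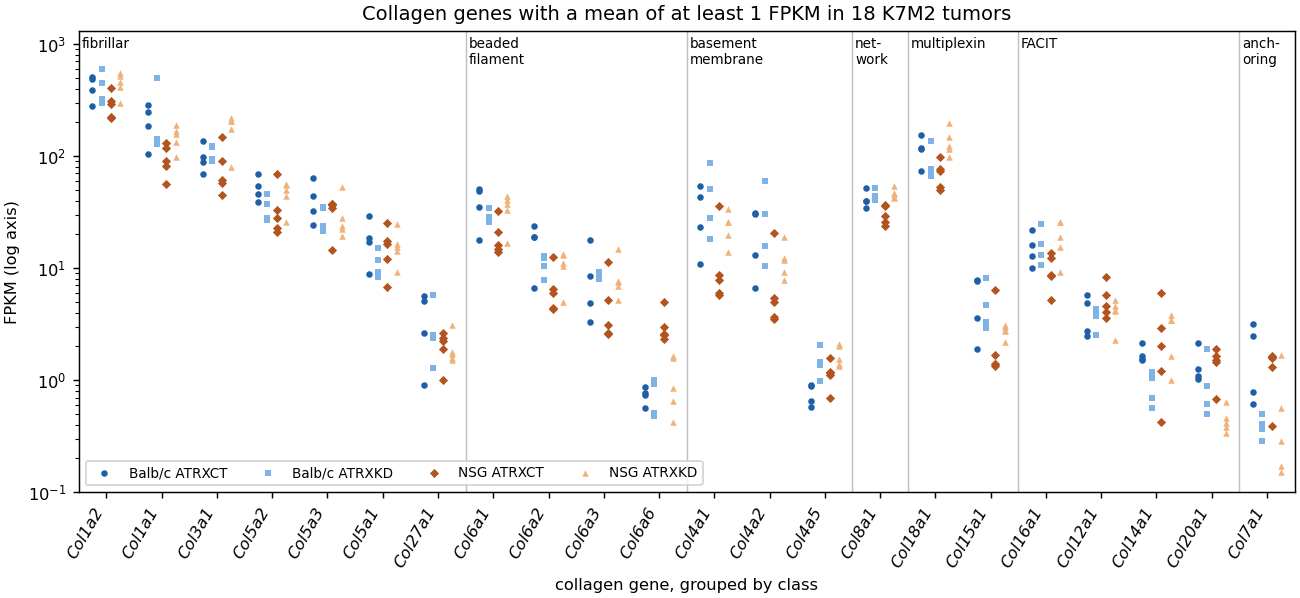
FPKM of the 22 collagen genes whose mean reached 1 FPKM, 1 symbol per tumor on a log axis, grouped by class and colored by the 4 groups of host and cells. Col1a2 was highest at 218 to 594 FPKM, and Col6a6 is the gene whose 5 NSG ATRXCT tumors all lie above the other 13.

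Among the 11 fibrillar genes, the chains of type I, *Col1a2* (mean over 18 tumors 391 FPKM) and *Col1a1* (164 FPKM), were followed by *Col3a1* (117 FPKM), the chain of the thin fibers of soft tissue, and by the chains of type V, which regulate fibril diameter: *Col5a2* (41.7 FPKM), *Col5a3* (32.5 FPKM) and *Col5a1* (15.4 FPKM). *Col27a1* had 2.56 FPKM. The fibrillar chains of cartilage were close to 0, with 0.0953 FPKM for *Col2a1*, 0.0360 for *Col11a1* and 0.135 for *Col11a2*, and *Col24a1* was at 0.117 FPKM. Fibrillar chains took 69.0% to 78.8% of the collagen FPKM in every tumor.

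Basement membrane chains were represented by *Col4a1* (27.6 FPKM) and *Col4a2* (16.4 FPKM), the ubiquitous pair, and by *Col4a5* (1.28 FPKM), whereas *Col4a3*, *Col4a4* and *Col4a6*, known from kidney and other specialized membranes, had means of 0.00371, 0.00534 and 0.00535 FPKM. Of the beaded filament chains, *Col6a1* (29.8 FPKM), *Col6a2* (11.04 FPKM) and *Col6a3* (7.61 FPKM) are the classical chains of type VI, and *Col6a6* (1.46 FPKM) was the only 1 of the 3 later described chains above 1 FPKM, with *Col6a4* at 0.158 and *Col6a5* at 0.120 FPKM. The basement membrane share of collagen FPKM varied from 1.88% to 8.89%, more than that of the beaded filaments (3.09% to 6.41%).

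The multiplexin *Col18a1*, whose C-terminal fragment is endostatin, came next after *Col3a1* at 103 FPKM, and *Col15a1* had 3.67 FPKM. Among the network chains, *Col8a1*, found in endothelial and other basement membranes, had 40.5 FPKM, while *Col8a2* (0.128 FPKM) and *Col10a1* (0.169 FPKM), the chain of hypertrophic cartilage, were low. Of the FACIT genes, *Col16a1* had 15.0, *Col12a1* 4.29, *Col14a1* 2.01, *Col20a1* 1.05 and *Col9a3* 0.439 FPKM, and *Col9a1*, *Col9a2*, *Col19a1* and *Col22a1* stayed below 0.1 FPKM. The anchoring fibril chain *Col7a1*, a product of epithelium and fibroblasts at the border of skin, had 1.00 FPKM. Of the transmembrane genes, *Col17a1* (0.272 FPKM) and *Col23a1* (0.187 FPKM) were above 0.1 FPKM and *Col13a1* and *Col25a1* were not, and of the remaining genes *Col28a1* had 0.162 and *Col26a1* 0.00502 FPKM. None of the 8 chondrocyte genes measured had a mean of 1 FPKM.

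The type I chains were at their highest in single Balb/c tumors. *Col1a1* was measured at 186, 287, 104 and 246 FPKM in the Balb/c ATRXCT tumors, 499, 143, 129 and 134 in the Balb/c ATRXKD tumors, 89.99, 56.6, 132, 80.9 and 117 in the NSG ATRXCT tumors and 97.3, 166, 158, 133 and 190.1 in the NSG ATRXKD tumors. Mouse 56 stood far above the other 3 tumors of its group (499 against at most 143 FPKM), and no group stood apart from all the others. *Col1a2* was measured at 387, 490.5, 278 and 510.3 FPKM in the Balb/c ATRXCT tumors, 594, 326, 299 and 449.9 in the Balb/c ATRXKD tumors, 291, 225, 407, 218 and 312 in the NSG ATRXCT tumors and 300.3, 552, 455, 417 and 522 in the NSG ATRXKD tumors. It exceeded *Col1a1* in all 18 tumors and ranged 2.72-fold, against 8.80-fold for *Col1a1*.

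*Col3a1* was measured at 99.1, 138, 69.8 and 88.3 FPKM in the Balb/c ATRXCT tumors, 121, 123, 94.4 and 91.1 in the Balb/c ATRXKD tumors, 61.1, 44.6, 148, 57.2 and 90.6 in the NSG ATRXCT tumors and 79.6, 173, 208, 207 and 218 in the NSG ATRXKD tumors. The NSG ATRXKD tumors of mice 27 to 30 held the 4 highest values of the series, and mouse 26 stood below them within the range of the NSG ATRXCT tumors. *Col5a1* was measured at 17.2, 29.3, 8.88 and 18.7 FPKM in the Balb/c ATRXCT tumors, 11.8, 15.1, 9.26 and 8.29 in the Balb/c ATRXKD tumors, 16.3, 6.83, 25.1, 12.1 and 17.6 in the NSG ATRXCT tumors and 9.19, 24.7, 15.5, 14.1 and 16.5 in the NSG ATRXKD tumors, with the 4 groups overlapping. *Col5a2* was measured at 46.1, 69.4, 39.3 and 54.1 FPKM in the Balb/c ATRXCT tumors, 45.8, 26.9, 27.7 and 36.99 in the Balb/c ATRXKD tumors, 28.1, 21.1, 68.7, 22.9 and 32.9 in the NSG ATRXCT tumors and 25.7, 56.1, 49.9, 44.3 and 55.01 in the NSG ATRXKD tumors. In Balb/c mice, ATRXKD mice 58, 59 and 60 were below all 4 ATRXCT tumors, and mouse 56 was within their range.

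Of the type VI chains, *Col6a1* was measured at 35.4, 50.5, 17.7 and 49.2 FPKM in the Balb/c ATRXCT tumors, 28.7, 25.7, 25.8 and 34.3 in the Balb/c ATRXKD tumors, 14.96, 15.95, 32.01, 13.9 and 20.8 in the NSG ATRXCT tumors and 16.8, 40.5, 33.1, 37.6 and 44.2 in the NSG ATRXKD tumors. Low values were those of 4 of the 5 NSG ATRXCT tumors, of mouse 26 and of mouse 44. *Col6a2* was measured at 18.8, 23.8, 6.63 and 19.1 FPKM in the Balb/c ATRXCT tumors, 12.9, 12.4, 10.4 and 7.86 in the Balb/c ATRXKD tumors, 4.35, 6.03, 12.6, 4.43 and 6.51 in the NSG ATRXCT tumors and 4.98, 11.1, 10.4, 13.1 and 13.3 in the NSG ATRXKD tumors. *Col6a3* was measured at 4.84, 17.9, 3.298 and 8.48 FPKM in the Balb/c ATRXCT tumors, 9.23, 8.902, 7.99 and 9.25 in the Balb/c ATRXKD tumors, 2.62, 2.597, 11.3, 3.08 and 5.17 in the NSG ATRXCT tumors and 5.16, 14.8, 6.99, 7.61 and 7.58 in the NSG ATRXKD tumors. In both genes NSG ATRXCT mouse 3 was above the other 4 tumors of its group, and mice 26 and 44 were the lowest of theirs.

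The basement membrane pair spread over more than 10-fold. *Col4a1* was measured at 23.1, 53.95, 10.97 and 43.3 FPKM in the Balb/c ATRXCT tumors, 86.5, 28.0, 18.05 and 50.6 in the Balb/c ATRXKD tumors, 7.84, 5.97, 35.6, 5.81 and 8.63 in the NSG ATRXCT tumors and 13.9, 33.5, 25.6, 19.6 and 25.9 in the NSG ATRXKD tumors. *Col4a2* was measured at 13.1, 31.2, 6.59 and 30.6 FPKM in the Balb/c ATRXCT tumors, 59.6, 15.8, 10.4 and 30.3 in the Balb/c ATRXKD tumors, 4.96, 3.66, 20.7, 3.53 and 5.36 in the NSG ATRXCT tumors and 7.91, 19.004, 11.9, 9.14 and 12.2 in the NSG ATRXKD tumors. For both genes the 4 lowest tumors were NSG ATRXCT mice 1, 2, 4 and 5, while the fifth tumor of that group, mouse 3, was above all NSG ATRXKD tumors.

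Chains of the same molecule kept their ratio to different degrees. *Col4a1* and *Col4a2*, which form a heterotrimer, lie head to head on chromosome 8 (*Col4a1* at chr8:11198423-11312826 on the minus strand, *Col4a2* at chr8:11312805-11449287 on the plus strand, mm10) and share 22 nt at their starts. Although *Col4a1* ranged 14.9-fold over the 18 tumors, the ratio of *Col4a1* to *Col4a2* stayed between 1.41 and 2.15, with a coefficient of variation of 11.97%. *Col1a1* and *Col1a2*, on chromosomes 11 and 6, gave ratios from 0.252 to 0.839 (coefficient of variation 34.1%). *Col6a1* and *Col6a2*, on chromosome 10 and 85387 nt apart, had ratios of 1.88 to 4.36. Even so, the ratio of *Col4a1* to *Col4a2* did not overlap between the NSG groups, with 1.58 to 1.72 in ATRXCT and 1.76 to 2.15 in ATRXKD tumors, and mice 28, 29 and 30 (2.15, 2.14 and 2.12) lay above the other 15 tumors (at most 1.77). The ratio of *Col6a6* to *Col6a1* also separated a group, with 0.142 to 0.171 in the 5 NSG ATRXCT tumors and at most 0.0945 in the other 13, as the level of *Col6a6* alone did. The ratio of *Col3a1* to *Col1a1* did not overlap between the ATRXCT groups, with 0.359 to 0.673 in Balb/c and 0.679 to 1.12 in NSG tumors. Several ratios were looked at, and the share of other gene pairs whose ratio separates groups was not computed. Whether reads at the shared starts of *Col4a1* and *Col4a2* were assigned by strand is not given in the sources used here, so reads there cannot be told apart.

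**Figure D2:**
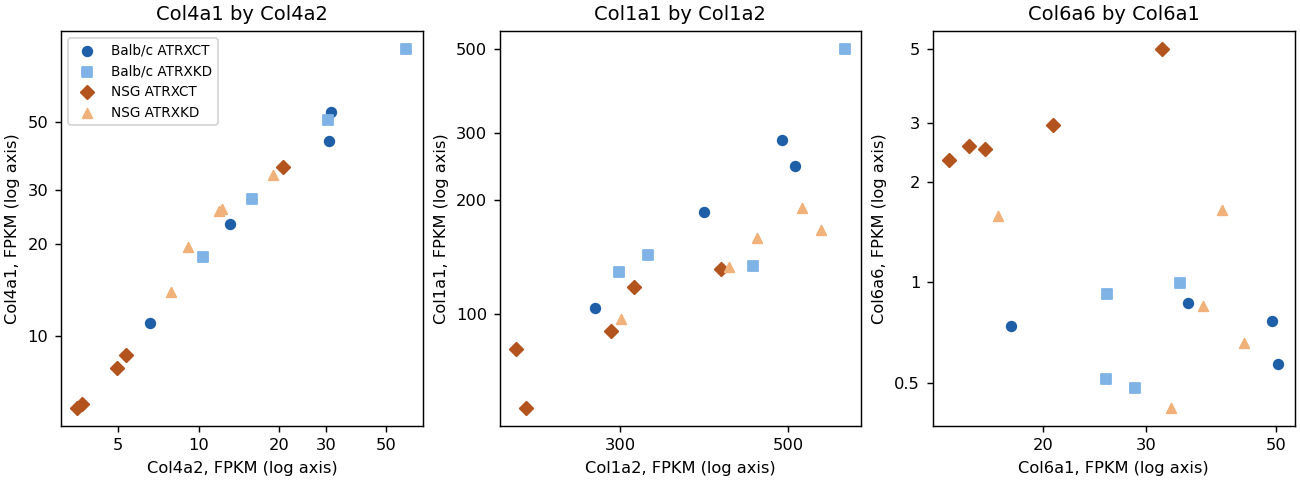
FPKM of 3 pairs of collagen genes, 1 symbol per tumor, both axes on a log scale. Col4a1 follows Col4a2 closely (ratio 1.41 to 2.15), Col1a1 follows Col1a2 less closely (ratio 0.252 to 0.839), and Col6a6 of the 5 NSG ATRXCT tumors lies above all others at a given Col6a1.

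Comparisons were made with limma on log2(FPKM + 1), a scale that understates the fold change of genes near or below 1 FPKM, and a gene was called where its Benjamini-Hochberg adjusted p over all tested genes was under 0.05 and its log2 fold change at least 1 in size.

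*Col6a6* was lower in NSG ATRXKD than in NSG ATRXCT tumors, and 1 of the 29 collagen genes tested was called lower and 0 higher. Among all 14654 genes tested, 0.293% were called lower and 0.171% higher. With the adjusted p alone, 2 collagen genes were lower, *Col6a6* and *Col20a1*, and 2 higher, *Col8a1* and *Col18a1*, against 3.05% lower and 3.73% higher among all genes. Groups did not overlap for 3 lower (*Col6a6*, *Col20a1* and *Col6a4*) and 2 higher genes (*Col8a1* and *Col18a1*), where 3.14% and 4.36% of all genes did not overlap. Of the 29 genes, 18 had a positive difference, with a median of 0.20, against 7293 of the 14654 genes (49.8%). This median was 0.48 without NSG ATRXCT mouse 3, 0.35 without NSG ATRXKD mouse 26, 0.46 with a pseudocount of 0.1, 0.61 over the 20 genes whose mean reached 1 FPKM and 0.0040 with no filter. At an unadjusted p under 0.05 there were 10 higher and 5 lower collagen genes, beside 13.8% higher and 12.5% lower of all genes. By class, all 3 basement membrane genes tested, both multiplexins, 6 of 9 fibrillar, 3 of 6 beaded filament and 2 of 5 FACIT genes were positive. The median of all genes was -0.0014.

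*Col6a6* encodes a chain that can take the place of the third chain of type VI. It was measured at 0.867, 0.567, 0.737 and 0.764 FPKM in the Balb/c ATRXCT tumors, 0.481, 0.513, 0.9201 and 0.993 in the Balb/c ATRXKD tumors, 2.56, 2.52, 5.01, 2.32 and 2.96 in the NSG ATRXCT tumors and 1.59, 1.65, 0.4202, 0.8497 and 0.655 in the NSG ATRXKD tumors. The 5 NSG ATRXCT tumors were above the other 13, while the NSG ATRXKD tumors overlapped with both groups in Balb/c mice. The share of all genes that set this group apart from the other 13 tumors was not computed. The difference in NSG mice was -1.01 ± 0.21 (SE) on the log2 scale (n = 5 and 5, limma, adjusted p = 0.0214). Leaving out 1 tumor at a time gave -1.12 to -0.86, and the call was lost without mouse 3 (NSG ATRXCT) or without mouse 28, 29 or 30 (NSG ATRXKD), with an adjusted p of up to 0.0691. The classical chains of type VI went the other way, with differences of 0.79 ± 0.27 for *Col6a1*, 0.60 ± 0.29 for *Col6a2* and 0.77 ± 0.35 for *Col6a3* (limma, adjusted p = 0.098, 0.213 and 0.187), none of which passed the test.

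The other genes named here were chosen after their values were seen. *Col20a1*, a FACIT chain, was at 1.45, 0.686, 1.51, 1.63 and 1.91 FPKM in NSG ATRXCT and at 0.383, 0.635, 0.334, 0.412 and 0.462 FPKM in NSG ATRXKD tumors, a difference of -0.73 ± 0.13 (limma, adjusted p = 0.0148). *Col8a1* was at 29.3, 25.998, 35.5, 23.7 and 36.8 FPKM and at 42.8, 53.5, 42.6, 45.7 and 47.3 FPKM in the same order, a difference of 0.61 ± 0.13 (limma, adjusted p = 0.0219). All 5 NSG ATRXKD tumors were below the NSG ATRXCT tumors for *Col20a1* and above them for *Col8a1*.

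*Col18a1* was measured at 115, 117, 74.1 and 155 FPKM in the Balb/c ATRXCT tumors, 66.1, 74.8, 77.03 and 137 in the Balb/c ATRXKD tumors, 73.2, 49.5, 98.2, 53.3 and 76.03 in the NSG ATRXCT tumors and 98.8, 195, 123, 116 and 147 in the NSG ATRXKD tumors. In NSG mice the lowest ATRXKD tumor, mouse 26, was just above the highest ATRXCT tumor, mouse 3. The difference was 0.95 ± 0.21 (limma, adjusted p = 0.028), and the gene was called higher when either of these 2 tumors was left out (1.08 without mouse 3 and 1.06 without mouse 26).

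The chains of types I, III and IV had positive differences in NSG mice that did not pass the test: 0.66 ± 0.23 for *Col1a1*, 0.63 ± 0.20 for *Col1a2*, 1.18 ± 0.34 for *Col3a1*, 1.13 ± 0.42 for *Col4a1* and 0.83 ± 0.39 for *Col4a2*, with adjusted p from 0.0597 (*Col3a1*) to 0.206 (*Col4a2*) in limma. *Col5a1* (0.08 ± 0.31) and *Col5a2* (0.49 ± 0.31) were further from the threshold. Without NSG ATRXCT mouse 3, 5 collagen genes were called higher (*Col3a1*, *Col4a1*, *Col4a2*, *Col6a3* and *Col18a1*) and 0 lower; without NSG ATRXKD mouse 26, 4 were called higher (*Col3a1*, *Col6a1*, *Col16a1* and *Col18a1*) and *Col6a6* lower.

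**Figure D3:**
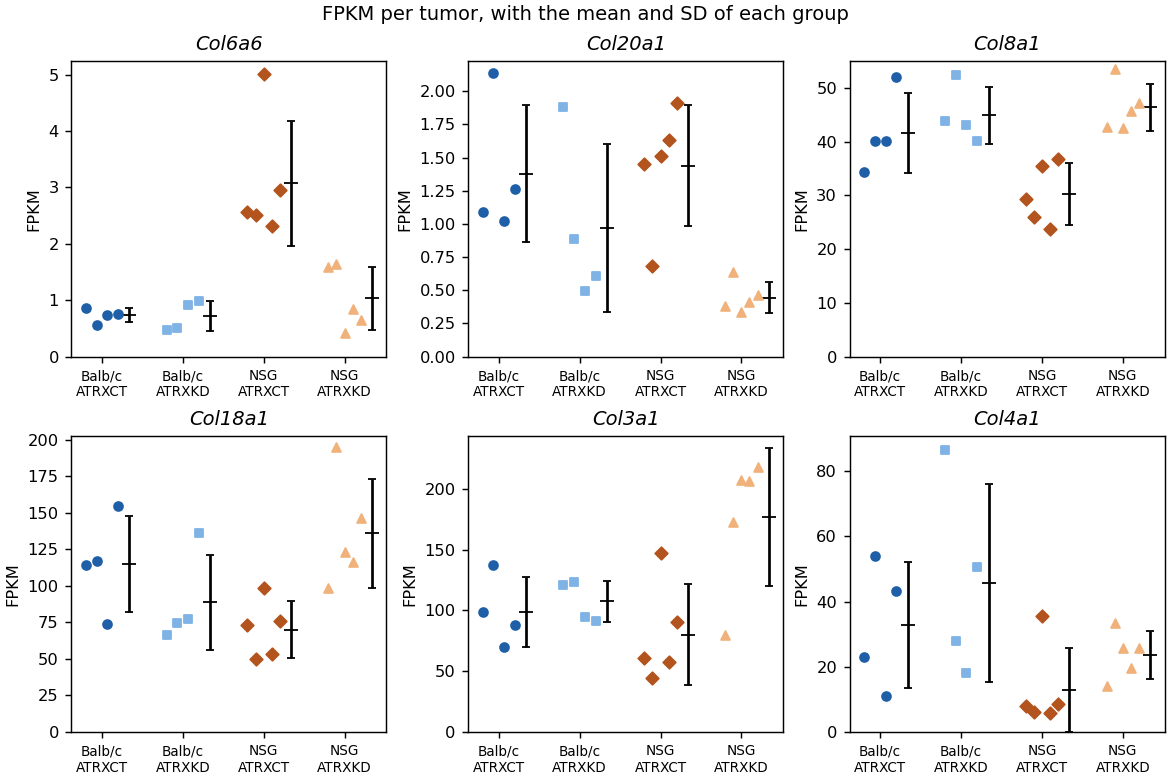
FPKM per tumor of 6 collagen genes in the 4 groups, with the mean and SD of each group as a bar at the right of its symbols. Col6a6 and Col20a1 are lower and Col8a1 and Col18a1 higher in all 5 NSG ATRXKD than in all 5 NSG ATRXCT tumors, whereas for Col3a1 and Col4a1 these groups overlap through mouse 26 or mouse 3.

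Lists of marker genes of other cells moved with the NSG groups or with single tumors. The mean log2(FPKM + 1) of 10 endothelial genes, 9 of them with a mean of at least 1 FPKM, was 1.72 to 2.78 in ATRXCT and 2.47 to 2.88 in ATRXKD tumors, with mouse 3 the only ATRXCT tumor above 2.03. For 10 fibroblast genes, 8 of them at 1 FPKM or more, the mean was 3.15 to 3.59 in ATRXCT and 3.02 to 4.16 in ATRXKD tumors, where mice 28, 29 and 30, the 3 with the lowest *Col6a6*, held 4.16, 3.99 and 3.98 and mice 26 and 27 held 3.02 and 3.12. For 10 adipocyte genes, 8 of them at 1 FPKM or more, it was 1.76 to 2.47 in ATRXCT tumors, 4.16, 3.02 and 3.30 in mice 28, 29 and 30 and 1.77 and 1.54 in mice 26 and 27. For 10 skeletal muscle genes, all at 1 FPKM or more, it was 0.592 to 4.94 in ATRXCT tumors, with mouse 3 highest, and 0.244 to 5.22 in ATRXKD tumors, with mouse 30 (5.22) and mouse 29 (3.82) highest. For 10 macrophage genes it was 7.37 to 8.03 and 6.95 to 7.53. For 10 pericyte and smooth muscle genes, 5 of them at 1 FPKM or more, it was 0.964 to 1.77 and 1.08 to 1.39. Mouse 3 was highest there too. Among the fibroblast genes, *Pdgfra* was at 4.41 to 7.46 FPKM in ATRXCT and 4.69 to 7.68 FPKM in ATRXKD tumors. *Dpt* was at 4.39 to 7.08 and 3.04 to 20.5 FPKM. The Y-linked *Eif2s3y*, listed at 0 with the same cells in Balb/c mice, was at 10.9 to 14.4 FPKM in ATRXCT and at 5.64 to 10.8 FPKM in ATRXKD tumors. No gene of these lists was at 0 in all tumors, and the part of these cells in the collagen differences was not tested.

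Genes that make, fold, cut, cross-link or bind collagen had mostly positive differences in NSG mice. Of 48 such genes, 44 were tested, 38 had a positive difference, the median was 0.28, and none was called by limma, whereas 49.8% of all genes had a positive difference and their median was -0.0014. At an unadjusted p under 0.05, 16 were higher and 2 lower, beside 13.8% and 12.5% of all genes. With the adjusted p alone, 6 were higher, and 1, *Lair1*, was lower, beside 3.73% and 3.05% of all genes. The largest of the 6 differences was that of *Fkbp10*, a prolyl isomerase of the endoplasmic reticulum that acts on procollagen, at 52.99 ± 7.61 FPKM (SD, n = 5) in ATRXKD and 29.05 ± 6.65 FPKM (SD, n = 5) in ATRXCT tumors, a difference of 0.86 ± 0.15 (SE; limma, adjusted p = 0.0148). *Pcolce*, an enhancer of C-propeptide removal, had the lowest p and differed by 0.78 ± 0.13 (limma, adjusted p = 0.0137). The other genes past the adjusted p were picked after their values were seen. The lysyl hydroxylase *Plod1* differed by 0.72 ± 0.16, the prolyl hydroxylase subunit *P4ha2* by 0.71 ± 0.16, and *Creb3l1*, a transcription factor that drives type I collagen in osteoblasts, by 0.45 ± 0.11. *Tll1*, a protease of propeptides, differed by 0.28 ± 0.08. *Lair1*, an inhibitory collagen receptor of leukocytes, was at 7.99 ± 1.34 FPKM (SD, n = 5) in ATRXKD and 13.98 ± 2.38 FPKM (SD, n = 5) in ATRXCT tumors and differed by -0.74 ± 0.13 (SE; limma, adjusted p = 0.0148).

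In Balb/c mice the ATRXKD and ATRXCT tumors differed in no called collagen gene. None of the 32 genes tested was called in either direction by limma, and among all 14701 genes tested 0% were called higher and 0.0068% lower. At an unadjusted p under 0.05, 1 collagen gene was higher and 4 were lower, beside 1.72% and 2.42% of all genes. Groups did not overlap for 2 higher genes (*Col4a5* and *Col10a1*) and 3 lower genes (*Col14a1*, *Col7a1* and *Col6a4*), against 1.25% and 1.93% of all genes. The ATRXCT values of *Col10a1*, 0.0306 to 0.0967 FPKM, spanned its floor, which was 0.0401 to 0.0667 FPKM over the libraries. The median difference of the 32 genes was -0.05, and 11 were positive, against 7232 of all genes (49.2%). The sign of this median rested on single tumors: it was 0.04 without mouse 43 (17 of 31 positive), 0.01 without mouse 45 (17 of 32) and 0.01 without mouse 58 (17 of 33), but -0.19 without mouse 44 (7 of 33) and -0.18 without mouse 56 (8 of 31). It was -0.0095 with the length trend removed (15 of 31 positive) and -0.17 with library weights (7 of 32).

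The lowest p belonged to *Col14a1*, a FACIT chain of fibril surfaces, which was at 1.63, 2.15, 1.51 and 1.54 FPKM in ATRXCT and 0.695, 1.04, 1.19 and 0.5601 FPKM in ATRXKD tumors. All 4 ATRXKD tumors were lower, and the difference of -0.54 ± 0.14 did not pass the test (limma, adjusted p = 0.565). *Col4a5*, an X-linked basement membrane chain, was at 0.896, 0.888, 0.581 and 0.647 FPKM in ATRXCT and 2.07, 1.46, 1.37 and 0.989 FPKM in ATRXKD tumors, all 4 of them higher, a difference of 0.48 ± 0.14 (limma, adjusted p = 0.747). *Col7a1*, chosen after its values were seen, was at 0.7903, 2.47, 0.609 and 3.203 FPKM and 0.364, 0.502, 0.409 and 0.284 FPKM, a difference of -0.88 ± 0.29 (limma, adjusted p = 0.928). Its 2 high ATRXCT tumors, mice 43 and 45, were also 2 of the libraries whose values rose with length. Mouse 45 had the highest mean of 10 keratinocyte genes in the series, 2.66 against at most 1.15 in the other 17 tumors. Mouse 43 had a mean of 0.263, the lowest of its group, and the part of epithelial cells was not tested.

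The chains described in full had differences between -0.61 ± 0.32 (*Col5a1*) and 0.46 ± 0.56 (*Col4a1*) in Balb/c mice. *Col1a1* differed by -0.04 ± 0.47, *Col1a2* by -0.01 ± 0.28, *Col3a1* by 0.15 ± 0.21, *Col5a2* by -0.59 ± 0.22, *Col6a1* by -0.31 ± 0.30, *Col6a2* by -0.50 ± 0.34, *Col6a3* by 0.26 ± 0.39 and *Col4a2* by 0.43 ± 0.59, all with adjusted p = 0.999 in limma. Without mouse 56 the difference of *Col1a1* was -0.51 and that of *Col1a2* -0.20. Of the 43 genes of collagen making and binding tested, 17 were positive, beside 49.2% of all genes, and none was called. The lowest p was that of the prolyl 3-hydroxylase *P3h2* (-0.55 ± 0.22), followed by the proteoglycan *Bgn* (-0.40 ± 0.17), both with adjusted p = 0.999 in limma.

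Whether the knock-down acted differently in the hosts was tested directly, as the difference of the effect in Balb/c minus that in NSG mice. None of the 32 collagen genes was called, with 1 higher and 6 lower at an unadjusted p under 0.05, and limma called none of all 14803 genes, of which 4.45% were higher and 5.86% lower at that level. Of the 32 differences 10 were positive, beside 50.6% of all genes, with a median of -0.32 that ranged from -0.50 to -0.11 when 1 tumor was left out, nearest to 0 without mouse 43. The lowest p belonged to *Col18a1*, with -1.34 ± 0.36, and *Col6a6*, with 0.99 ± 0.27 (limma, adjusted p = 0.228 for each). Values for the 2 hosts stood side by side as -0.39 ± 0.27 and 0.95 ± 0.21 for *Col18a1*, and as -0.02 ± 0.13 and -1.01 ± 0.21 for *Col6a6*. For the chains described in full, the difference between hosts was -0.70 ± 0.53 for *Col1a1*, -0.64 ± 0.35 for *Col1a2*, -1.03 ± 0.46 for *Col3a1*, -0.69 ± 0.48 for *Col5a1*, -1.08 ± 0.42 for *Col5a2*, -1.09 ± 0.44 for *Col6a1*, -1.10 ± 0.48 for *Col6a2*, -0.50 ± 0.56 for *Col6a3*, -0.68 ± 0.74 for *Col4a1* and -0.40 ± 0.75 for *Col4a2*. All 10 were negative, and none passed the test. Of the 44 genes of collagen making and binding, 38 were negative and 6 positive, and the lowest p were those of *Pcolce* (-0.84 ± 0.25, limma, adjusted p = 0.291) and *Plod3* (-0.75 ± 0.23, limma, adjusted p = 0.304).

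**Figure D4:**
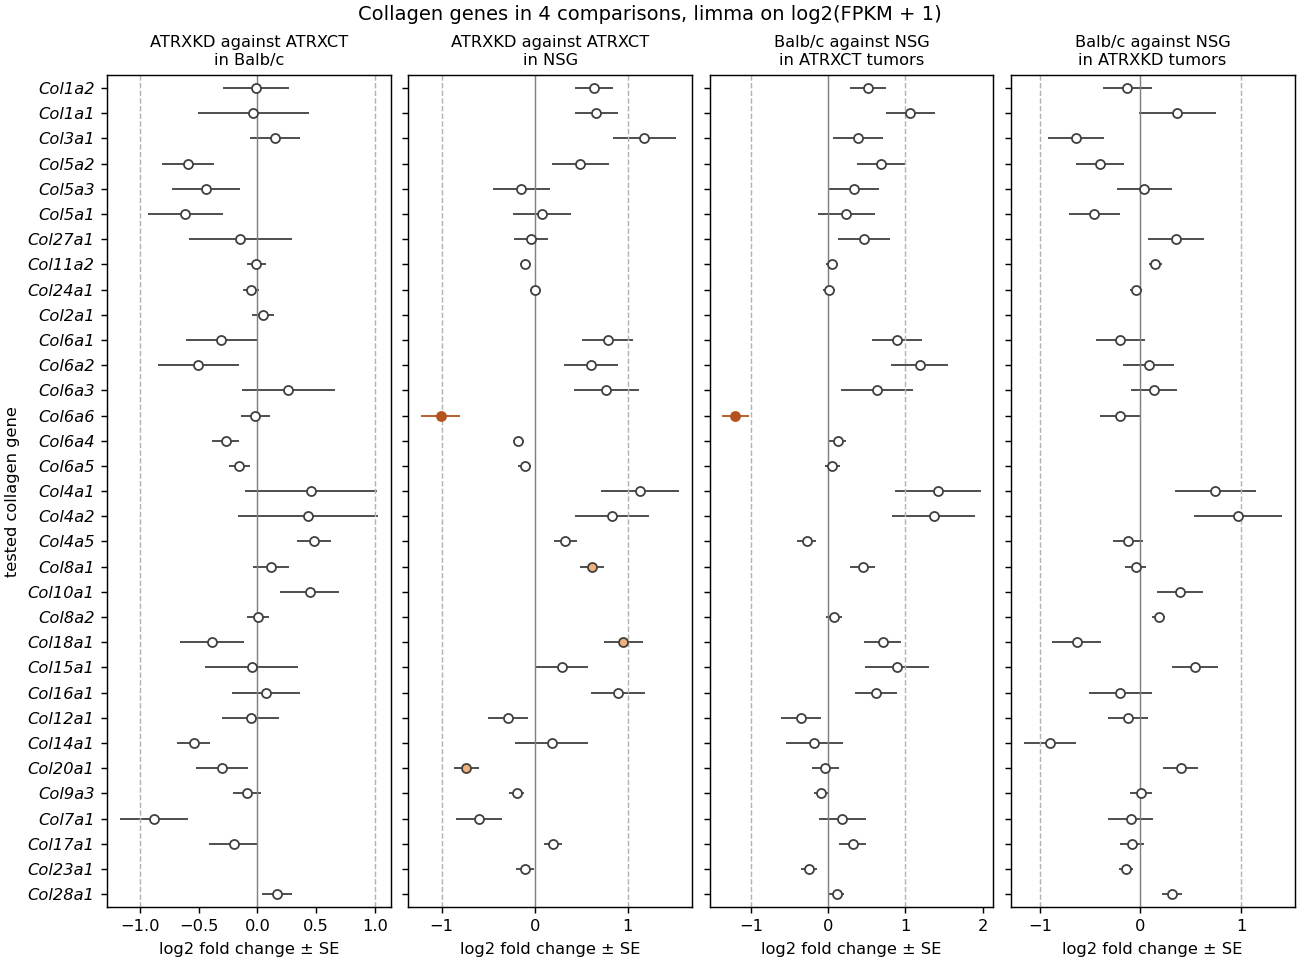
Log2 fold change with its SE for each tested collagen gene in 4 comparisons, ordered by class, with dashed lines at -1 and 1. Filled dark symbols are called genes (Col6a6 in NSG mice and in ATRXCT tumors), filled light symbols passed the adjusted p alone (Col8a1, Col18a1 and Col20a1 in NSG mice), and open symbols passed neither.

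Between hosts carrying ATRXCT cells, *Col6a6* was called lower in Balb/c tumors, and 0 of the 31 collagen genes tested were called higher. Among all 14828 genes, 0.546% were called lower and 0.883% higher, and with the adjusted p alone 1.09% were lower and 2.09% higher, against 1 and 0 collagen genes. Groups did not overlap for *Col17a1*, which was higher, and for *Col6a6*, against 4.72% higher and 2.85% lower of all genes. Of the tested collagen genes 24 of 31 were positive, that is higher in Balb/c tumors, with a median of 0.32, beside 7609 of all genes (51.3%). At an unadjusted p under 0.05, 8 collagen genes were higher and 3 lower, against 11.5% and 7.87% of all genes. The median was 0.10 without Balb/c ATRXCT mouse 43 (22 of 31 positive), 0.19 without mouse 45, 0.11 without NSG ATRXCT mouse 2 (22 of 31), 0.19 with library weights and 0.17 with the length trend removed (23 of 31). It rose to 0.43 without Balb/c ATRXCT mouse 44, 0.37 without mouse 41 and 0.41 without NSG ATRXCT mouse 3. A pseudocount of 0.1 gave 0.43, the genes whose mean reached 1 FPKM gave 0.51, and no filter gave 0.055, the lowest value. With the class of the library by its slope as a term, a setting chosen after seeing the data, it was 0.13 (20 of 31). Values rose with length in 2 of the 4 Balb/c and 1 of the 5 NSG libraries compared, and the part of this in the differences was not tested. All 9 fibrillar genes tested were positive, of which *Col24a1*, at 0.01 ± 0.07, turned negative with the length trend removed (-0.0035), and *Col24a1* (-0.0064) and *Col5a1* (-0.038) did with the class term.

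*Col6a6* had a mean of 0.734 ± 0.125 FPKM (SD, n = 4) in Balb/c ATRXCT and 3.07 ± 1.11 FPKM (SD, n = 5) in NSG ATRXCT tumors, a difference of -1.20 ± 0.17 (SE; limma, adjusted p = 0.00248). The call held without any 1 of the 9 tumors (-1.26 to -1.05). This comparison shares the 5 NSG ATRXCT tumors with the knock-down comparison in NSG mice. The differences of the classical chains were 0.89 ± 0.32 for *Col6a1*, 1.18 ± 0.36 for *Col6a2* and 0.64 ± 0.47 for *Col6a3*, those of type I 1.06 ± 0.31 for *Col1a1* and 0.51 ± 0.24 for *Col1a2*, and those of type IV 1.42 ± 0.55 for *Col4a1* and 1.37 ± 0.53 for *Col4a2*. *Col3a1* (0.38 ± 0.32), *Col5a1* (0.23 ± 0.37) and *Col5a2* (0.68 ± 0.31) had differences nearer to 0 than *Col1a1*, and adjusted p ranged from 0.107 (*Col1a1*) to 0.728 (*Col5a1*) in limma. *Col1a1*, *Col6a1* and *Col6a2* were called higher without Balb/c ATRXCT mouse 44, and *Col4a1*, *Col4a2* and *Col6a2* without NSG ATRXCT mouse 3. Of 43 genes of collagen making and binding, 29 were positive, beside 51.3% of all genes, and none was called, and *Creb3l1* (0.89 ± 0.15, limma, adjusted p = 0.00711) and *Plod1* (0.72 ± 0.17, limma, adjusted p = 0.0455) passed the adjusted p alone. Endothelial genes had a mean of 2.46 to 2.97 in these Balb/c tumors against 1.72 to 2.78 in the NSG tumors, and their part in these differences was not tested.

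Between hosts carrying ATRXKD cells, none of the 30 collagen genes tested was called by limma, and among all 14669 genes 1.12% were called higher in Balb/c tumors and 0.266% lower. At an unadjusted p under 0.05, 6 collagen genes were higher and 3 lower, beside 9.93% and 6.5% of all genes. Groups did not overlap for 2 higher genes, *Col28a1* and *Col8a2*, and for 0 lower genes, against 5.08% and 3.05% of all genes. The NSG values of *Col8a2*, 0 to 0.0786 FPKM, spanned its floor, which was 0.0285 to 0.0475 FPKM over the libraries. Of the 30 differences 14 were positive, beside 6913 of all genes (47.1%), with a median of -0.05. This median was 0.04 without NSG ATRXKD mouse 27 (17 of 31 positive), -0.09 without Balb/c ATRXKD mouse 56 (8 of 28) and -0.11 with the class term (11 of 30). The host comparisons share no tumor.

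*Col14a1* was at 0.695, 1.04, 1.19 and 0.5601 FPKM in Balb/c ATRXKD and 1.001, 1.64, 3.802, 3.44 and 3.42 FPKM in NSG ATRXKD tumors. Only mouse 26 of the NSG tumors lay in the range of the Balb/c tumors, and the difference was -0.90 ± 0.26 (limma, adjusted p = 0.102), called lower without mouse 26 (-1.10). The fibroblast genes had a mean of 3.00 to 3.24 in these Balb/c and 3.02 to 4.16 in these NSG tumors. Mice 28, 29 and 30 were highest in both this mean and *Col14a1*. The genes of the list did not move together. *Dpt* reached 3.45 FPKM in Balb/c and 20.5 in NSG tumors, *Mfap5* 2.77 and 15.3, and *Pi16* 1.94 and 6.59. By contrast, *Pdgfra* was at 6.71 to 18.4 FPKM in Balb/c and 4.69 to 7.68 in NSG tumors. The part of fibroblasts in the difference of *Col14a1* was not tested. *Col28a1*, a chain known from nerve, was at 0.634, 0.352, 0.163 and 0.196 FPKM in Balb/c and 0.0488, 0.0834, 0.0817, 0.0691 and 0.0562 FPKM in NSG tumors, a difference of 0.31 ± 0.10 (limma, adjusted p = 0.134). The chains described in full differed by between -0.64 ± 0.28 (*Col3a1*) and 0.97 ± 0.43 (*Col4a2*), with *Col1a1* at 0.36 ± 0.38, *Col1a2* at -0.13 ± 0.24, *Col5a1* at -0.46 ± 0.25, *Col5a2* at -0.40 ± 0.24, *Col6a1* at -0.20 ± 0.25, *Col6a2* at 0.08 ± 0.26, *Col6a3* at 0.13 ± 0.23 and *Col4a1* at 0.74 ± 0.40, and adjusted p from 0.281 (*Col3a1*) to 0.901 (*Col6a2*) in limma. Of 44 genes of collagen making and binding, 14 were positive, beside 47.1% of all genes, and none was called, and the fibril-bound proteoglycan *Lum* passed the adjusted p alone, at 1.55 ± 0.479 FPKM (SD, n = 4) in Balb/c and 4.22 ± 1.48 FPKM (SD, n = 5) in NSG tumors (limma, adjusted p = 0.0421), with a log2 fold change just short of the threshold. The next lowest p was that of *Pcolce* (-0.36 ± 0.13, limma, adjusted p = 0.194).

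*Col4a1* and *Col4a2* also differed between the libraries by their slope along transcript length. In the 6 libraries whose values rose with transcript length, *Col4a1* was at 33.5 to 86.5 FPKM and *Col4a2* at 19.004 to 59.6 FPKM, against 5.81 to 28.0 and 3.53 to 15.8 FPKM in the other 12. They were the 2 of 32 genes for which the 6 libraries were all above the others, 0 genes were all below, and of all 14803 genes 3.60% were all above and 8.02% all below. After the trend with length had been removed from each library, the ranges overlapped slightly, so the separation was no longer complete. They were 29.9 to 67.7 against 6.55 to 30.7 FPKM for *Col4a1* and 17.1 to 47.0 against 3.98 to 17.2 FPKM for *Col4a2*. The same 6 libraries had means of the endothelial genes of 2.71 to 3.84 against 1.72 to 3.24, and the defining markers *Pecam1* and *Cdh5* were present in all 18 tumors, at 5.27 to 41.3 and 3.17 to 36.7 FPKM. The part of endothelial cells and of the libraries in the level of these genes was not tested. As deposited, the ranges over all groups overlapped for *Col1a2*, with 407 to 594 against 218 to 522 FPKM. They also overlapped for *Col6a3*, whose transcript of 10841 nt is longer than that of *Col4a1* (6632 nt). Within every group, though, the libraries whose values rose with length held the highest values of *Col1a2*, *Col5a2* and *Col6a3*. This was not so for *Col1a1* and *Col3a1*, and the part of the libraries was not tested.

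**Figure D5:**
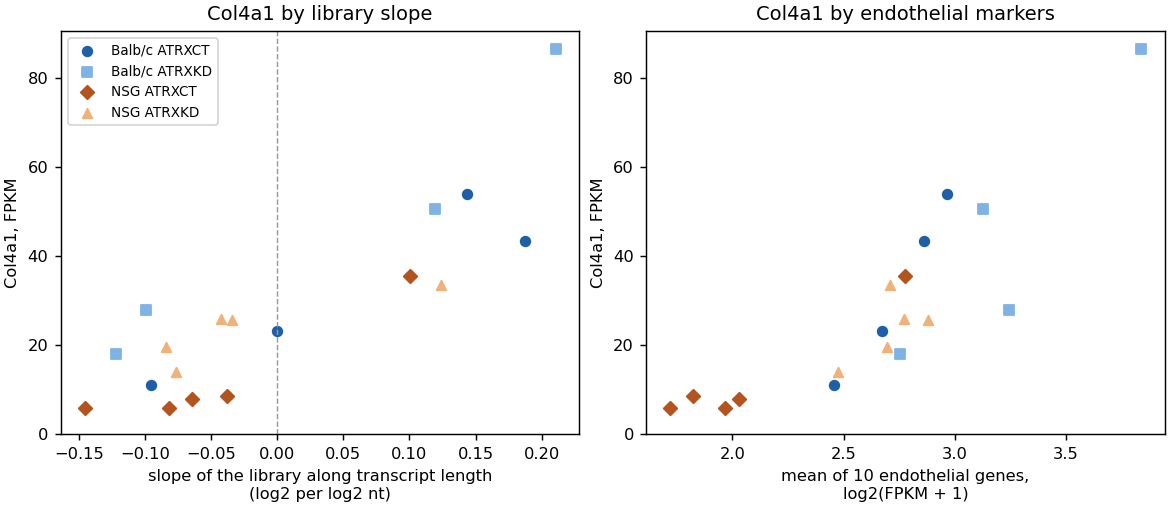
Col4a1 in FPKM for each tumor against the slope of its library along transcript length (left) and against the mean log2(FPKM + 1) of 10 endothelial genes (right). The 6 libraries with a slope above 0 hold 33.5 to 86.5 FPKM and all others at most 28.0, and the tumor of mouse 56 is highest in Col4a1 and in the endothelial mean.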

How the data were processed

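RNA of 18 tumors was measured, and groups were taken from the sample titles. The authors sequenced stranded, ribosome-depleted libraries as read pairs of 75 bp, aligned them to mm10 with STAR 2.6.0c, discarded PCR duplicates as well as reads of quality under 20, and ran Cufflinks 2.2.1 on RefSeq gene models. The values they deposited are log2(FPKM + 1), the scale on which the study plots these tumors, and the base was checked on the values. Exon positions on mm10 were read from the annotation the authors deposited, and 92 spike-ins among the 20970 entries were left out. All columns were matched to a sample (0 were not).

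FPKM were recovered from the deposited log2 values. Depth was estimated from the steps of low values, but only 37.0% to 42.0% of values lay within 0.1 of a whole fragment (20% by chance), so reads were not recovered and no count test was run. Floors cover counting error only. limma 3.58.1 (R 4.3.3, eBayes with trend) was fitted per comparison to all genes whose mean reached 0.1 FPKM in its tumors. Benjamini-Hochberg adjustment was over all genes tested. The fit was tried on simulated data with log2 changes of 2 in size, larger than the differences of the collagen genes. Recovery of changes as small as those was not tested. Tables were made with Python 3.11.15, pandas 2.3.3 and numpy 2.4.6. The members and the lists of pathway and marker genes were chosen with earlier results of these data known. Named with the value in every tumor were *Col1a1*, *Col1a2*, *Col3a1*, *Col5a1*, *Col5a2*, *Col6a1*, *Col6a2*, *Col6a3*, *Col4a1* and *Col4a2*, and per comparison the called genes or, with none, the 2 of lowest p, and likewise for pathway genes. Alternatives were the pseudocount, the filter, scaling, removal of the length trend, the fold threshold, library weights, 1 fit of all groups and leaving out each tumor.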

Additional observations from a re-analysis of the deposited data

Results flagged for a closer look

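Of 60 sets of 1 gene in 1 group, 5 held a tumor far from the others of its group by Dixon's criterion, which chance meets in about 1 in 20 sets, and genes measured in the same tumor are not independent. *Col1a1* of Balb/c ATRXKD mouse 56 was at 499 FPKM, with the next tumor of its group at 143 FPKM. In NSG ATRXKD mouse 26, *Col3a1* was at 79.6 FPKM and *Col6a2* at 4.98 FPKM, with the next tumors at 173 and 10.4 FPKM. In NSG ATRXCT mouse 3, *Col4a1* was at 35.6 FPKM and *Col4a2* at 20.7 FPKM, with the next tumors at 8.63 and 5.36 FPKM. The library of mouse 3 was the only one of its group whose values rose with transcript length.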

How the results depend on the processing

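Of the numbers of called collagen genes under another setting for all tumors, 34 stayed within 1.5 times the value above and 10 rose, and the cause was not tested. In NSG mice, where 1 gene was called between ATRXKD and ATRXCT, the number was 4 with no fold threshold, 2 with a pseudocount of 0.1 (*Col6a6* and *Col20a1*), 2 with the length trend removed or with 1 fit of all groups (*Col6a6* and *Col3a1*), 3 with the class of the library by its slope as a term, a setting chosen after seeing the data (*Col3a1* and *Col4a1* were added), and 5 with library weights (*Col3a1*, *Col4a1*, *Col4a2* and *Col6a1* were added). Between hosts with ATRXCT cells, where 1 was called, weights gave 6 and 1 fit of all groups 2. Weights also gave 1 between hosts with ATRXKD cells (*Col14a1*) and 6 for the host difference of the effect (*Col1a1*, *Col3a1*, *Col5a2*, *Col6a1*, *Col6a2* and *Col18a1*, all lower), where 0 had been called. Leaving out 1 tumor at a time gave 0 to 5 in NSG mice, 1 to 4 between hosts with ATRXCT and 0 to 1 with ATRXKD cells, and 0 in Balb/c mice and for the host difference. Of the log2 fold changes, 423 kept direction and call under these settings, 21 gained a call and 7 turned. In Balb/c mice, removal of the length trend gave 0.015 for *Col1a1* and 0.032 for *Col1a2*, and weights gave -0.013 for *Col4a2*. Between hosts, the class term gave -0.038 for *Col5a1* in ATRXCT tumors, and in ATRXKD tumors weights gave -0.080 for *Col1a1*, removal of the length trend -0.058 for *Col6a3* and the class term -0.022 for *Col6a3*. Without 1 tumor, values that turned ranged in Balb/c mice from -0.51 to 0.16 for *Col1a1*, -0.20 to 0.13 for *Col1a2*, -1.6e-05 to 0.32 for *Col3a1*, -0.046 to 0.67 for *Col6a3* and -0.0014 to 0.80 for *Col4a2*, and in NSG mice from -0.16 to 0.27 for *Col5a1*. Between hosts they ranged from -0.014 to 0.53 for *Col5a1* in ATRXCT tumors, and in ATRXKD tumors from -0.10 to 0.54 for *Col1a1*, -0.32 to 0.013 for *Col1a2*, -0.14 to 0.22 for *Col6a2* and -0.00030 to 0.34 for *Col6a3*. No paired analysis was possible because the mouse numbers are not shared between groups. Depth limits the 12 genes with a mean below 0.1 FPKM, most of which were not tested.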
